A study of Arabidopsis thaliana with 8 samples.

Results

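Phosphate homeostasis in Arabidopsis thaliana was followed through 10 loci in leaf messenger RNA of dcl1 mutants and of wild type (wt). The 10 loci are a set named by their roles, chosen with earlier results of these data known, out of 22546 loci listed in at least 1 of the deposited count files. They are PHO2 and NLA, which are targets of miR399 and miR827, the SPX proteins SPX1, SPX2 and SPX3, the transporters PHT1;1 and PHT1;4, the trafficking factor PHF1, the exporter PHO1 and the decoy RNA IPS1. Of the 10, 8 were listed in at least 1 file, and 7 had enough counts to be tested.

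The groups were dcl1 leaves with high definition (HD) adapters and dcl1 leaves with standard Illumina adapters, each set against wt leaves with the same adapters, and each of the 4 groups had 2 libraries. Per the labels, plants grew at 25 °C by day and 18 °C by night with 16 h of light and no treatment, leaf RNA was taken with Tri-reagent, and mRNA was purified on Dynabeads. Each RNA was used for both adapters, so the 8 libraries were taken to stand for 4 RNA samples, matched by replicate number. The labels give neither the dcl1 allele nor whether replicates were separate plants, so each p-value speaks only of variation among these samples, and that variation may be technical. DCL1 is the nuclease that releases microRNAs from hairpin precursors. Null dcl1 alleles are lethal to embryos, and how much DCL1 activity these leaves kept is not known here.

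Plants short of phosphate raise miR399, which travels from shoot to root and pairs with the mRNA of PHO2, a ubiquitin-conjugating enzyme that sends PHO1 and PHT1 proteins for degradation. miR827 pairs in the same way with the mRNA of NLA, a ubiquitin ligase that removes PHT1 transporters from the cell surface. SPX proteins bind inositol pyrophosphates when phosphate is plentiful and then hold back PHR1, the transcription factor that switches on the starvation genes, miR399 and IPS1 among them.

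The mature miRNAs are shown because plant miRNAs find their targets by pairing along nearly their whole length, with the seed, bases 2 to 8, in capitals. They were read 5′ to 3′ from the RefSeq TAIR10.1 genome at its annotated mature miRNA positions.
miR399a: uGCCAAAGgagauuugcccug
miR399b: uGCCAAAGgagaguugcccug
miR399c: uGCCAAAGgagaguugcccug
miR399d: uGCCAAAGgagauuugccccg
miR399e: uGCCAAAGgagauuugccucg
miR399f: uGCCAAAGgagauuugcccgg
miR827: uUAGAUGAccaucaacaaacu
All 6 miR399 species shown carried 1 seed, and miR399b and miR399c were identical. The others differed from miR399b at 1 to 3 of 21 bases, none of them in the seed. miR827 has another seed, so the families were searched separately. A further annotated sequence, from the 5′ arm of the miR399c hairpin, has a different seed again. It is not shown and was left out of the search.

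The longest annotated mRNA of every locus was then searched for pairing sites, with a penalty of 0.5 for each G:U pair and 1 for each mismatch and a limit of 3. The PHO2 transcript held 5 miR399 sites, listed from its 5′ end with Watson-Crick pairs in capitals.
PHO2 site at chr2:14282106-14282126: uAGGGCAAAUCUuCUUUGGCA
PHO2 site at chr2:14281973-14281993: uAGGGCAuAUCUCCUUUGGCA
PHO2 site at chr2:14281884-14281904: uuGGGCAAAUCUCCUUUGGCA
PHO2 site at chr2:14281827-14281847: uCGaGCAAAUCUCCUUUGGCA
PHO2 site at chr2:14281770-14281790: uAGaGCAAAUCUCCUUUGGCA
All 5 sites lay on the minus strand in the 5′ UTR, between 190 and 526 bases before the start codon. Each paired with the whole miR399 seed, and the penalties were 1 to 1.5. Of the 31346 loci with an mRNA feature, which were 27444 protein-coding loci and 3902 pseudogenes, 8 had a miR399 site, which is 0.0255%, and PHO2 was the only one of them with more than 1. The other 7 had 1 site each, outside the 5′ UTR and with penalties of 2 to 3.

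miR827 sites were found in 2 loci, NLA and the vacuolar phosphate transporter PHT5;1. IPS1 and its relative AT4 hold a miR399 site with 3 extra bases opposite the middle of the miRNA, the arrangement that lets a decoy bind miR399 without being cut.
NLA site at chr1:635401-635421, plus strand: uGUUUGUUGAUGGUCAUCUAA
PHT5;1 site at chr1:23352374-23352394, minus strand: AuUacGUUGAUGGUCAUCUAA
IPS1 decoy at chr3:3051224-3051247, plus strand: uuGGGCAACUucuaUCCUUUGGCA
AT4 decoy at chr5:895149-895172, plus strand: uuGGGCAACUucgaUCCUUUGGCA
The NLA site paired at 20 of 21 bases and lay in the 5′ UTR, 53 bases before the start codon. The PHT5;1 site, also in the 5′ UTR, had 3 mismatches, all in the part that pairs with the 3′ end of the miRNA. RefSeq annotates a short reading frame in IPS1 and in AT4, and the decoy sites fell inside it. None of SPX1, SPX2, SPX3, PHT1;1, PHT1;4, PHF1 and PHO1 had a site for either miRNA within the limit, and their best matches had penalties of 5 to 8.5.

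**Figure D1:**
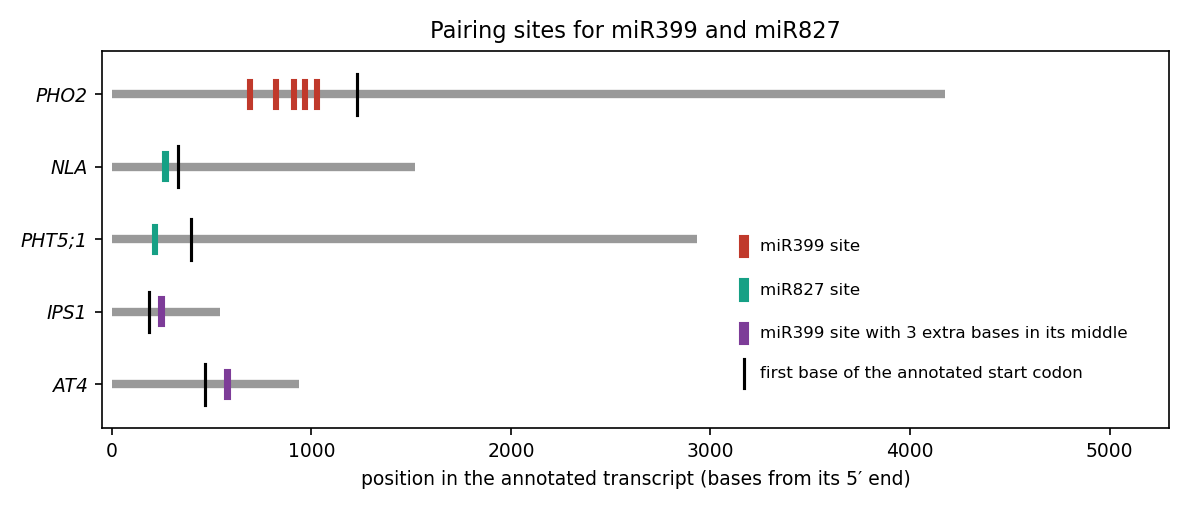
Positions of the miR399 and miR827 sites along the annotated transcripts of PHO2, NLA, PHT5;1, IPS1 and AT4, in bases from the 5′ end of the transcript (x axis). Bars are sites of 21 bases (24 in the decoys IPS1 and AT4) and black lines mark the annotated start codon: the 5 PHO2 sites stand together before it.

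The files give read counts per locus, with totals of 15772958 to 45929383 per library. Normalised counts are given as CPM after TMM scaling of the library totals, and levels of different genes are compared only as CPM per kilobase of exon. Loci annotated as ribosomal RNA took 17.3% to 28.7% of the counts. The 5 leaf markers summed to 53331 to 65676 CPM in dcl1 and 54251 to 71408 CPM in wt, and the 8 root markers to 1.53 to 3.16 CPM in dcl1 and 1.92 to 3.09 CPM in wt, with 4 of them at 0 throughout. DCL1 mRNA itself was at 21.2 to 25.7 CPM in dcl1 and 20.2 to 21.3 CPM in wt, a log2 fold change of 0.14 (SE 0.17, edgeR adjusted p = 0.701, summed counts), and since the allele is not given this does not check the labels. In bulk leaf RNA, fewer cells of a type and less RNA per cell cannot be told apart.

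None of the 7 testable phosphate genes differed between dcl1 and wt at an adjusted p under 0.05 by edgeR's quasi-likelihood test, with HD adapters, with standard adapters or on the summed counts. The background was 4.33% of 19521 loci called with HD adapters, 4.23% with standard adapters and 8.85% of 19711 loci on the summed counts. At an unadjusted p under 0.05 there was 1 of the 7 with HD adapters (PHO2), 1 with standard adapters (SPX1) and 2 on the summed counts (PHO2 and SPX1), against 15.9%, 16.0% and 21.7% of all loci tested. DESeq2 called 1 with HD adapters (PHO2) and 0 in the other 2 comparisons. With 2 samples a group, a p above the threshold does not show that a gene was unchanged.

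PHO2 (AT2G33770, chr2:14277558-14283113, minus strand), the miR399 target, was the phosphate gene whose libraries were most cleanly ordered by genotype. It stood at 113 and 122 CPM in dcl1 with HD adapters and at 72.2 and 88.1 CPM in wt with HD adapters. With standard adapters it stood at 104 and 112 CPM in dcl1 and at 77.9 and 101 CPM in wt. All 4 dcl1 libraries lay above all 4 wt libraries, and PHO2 was the only 1 of the 7 of which this was true, while 7.64% of all loci tested were placed so. The margin was narrow with standard adapters, where the lowest dcl1 library and the highest wt library differed by less than the 2 wt libraries did.

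After the HD and standard counts of each RNA sample were summed, PHO2 averaged 114 ± 3.53 CPM in dcl1 and 84.8 ± 14.1 CPM in wt (SD, n = 2 each), a 1.34-fold difference. The log2 fold change was 0.42 (SE 0.15, edgeR adjusted p = 0.107). It was 0.55 with HD adapters (SE 0.18, edgeR adjusted p = 0.0819) and 0.27 with standard adapters (SE 0.17, edgeR adjusted p = 0.503), and the difference between the adapters was 0.28 (SE 0.25, edgeR adjusted p = 0.9999). The HD difference passed the threshold with DESeq2 (adjusted p = 0.0359). All of these HD and standard fits took the libraries as independent, although each RNA sample was used for both adapters. Over the alternatives tried, the HD log2 fold change ran from 0.43 to 0.71. The summed one ran from 0.26 to 0.59, and the highest value came with wt replicate 2 left out. The fit without wt replicate 2 has 1 wt sample, so its spread comes from the dcl1 samples alone. The lone sample is assumed to vary like them, as in every summed fit below that leaves out a sample.

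NLA (AT1G02860, chr1:635144-637262, plus strand), the miR827 target, did not lie on the same side as PHO2. It stood at 8.52 and 3.76 CPM in dcl1 with HD adapters, against 7.01 and 14.1 CPM in wt. With standard adapters it stood at 6.72 and 7.55 CPM in dcl1, against 7.68 and 9.17 CPM in wt. The genotypes overlapped with HD adapters, and with standard adapters both dcl1 libraries lay below both wt libraries by a small margin. On the summed counts NLA averaged 7.18 ± 1.20 CPM in dcl1 and 9.46 ± 3.01 CPM in wt (SD, n = 2 each), with a log2 fold change of -0.40 (SE 0.28, edgeR adjusted p = 0.446). It was -0.77 with HD adapters (SE 0.43, edgeR adjusted p = 0.413) and -0.24 with standard adapters (SE 0.43, edgeR adjusted p = 0.873).

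NLA shares 49 bases with the antisense locus AT1G02870, which had 1106 counts over the 8 libraries against 2097 for NLA, and 278 bases with AT1G04147, which had none. The sources used here do not say whether the counting used strand, so reads in the shared bases cannot be assigned with certainty. PHT5;1, the other transcript with a miR827 site, stood at 26.9 and 26.1 CPM in the summed dcl1 samples and at 22.5 and 22.5 CPM in the summed wt samples. Its log2 fold change was 0.24 (SE 0.16, edgeR adjusted p = 0.446).

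The other loci with a miR399 site were found by sequence alone and lie outside the rule for named genes. Of the 8 miR399 loci, 4 had enough counts to test: PHO2, LINC1, A/N-InvC and RH39. On the summed counts edgeR called 0 of these 4, against 8.85% of all loci tested, and DESeq2 called 0. At an unadjusted p under 0.05 there were 2 of the 4, against 21.7% of all loci. LINC1, a nuclear lamina-like protein, stood at 52.7 and 64.8 CPM in dcl1 and 47.3 and 46.0 CPM in wt, with a log2 fold change of 0.33 (SE 0.16, edgeR adjusted p = 0.228). RH39, a chloroplast RNA helicase, stood at 36.4 and 37.4 CPM in dcl1 and 31.2 and 27.7 CPM in wt, with a log2 fold change of 0.33 (SE 0.16, edgeR adjusted p = 0.235). A/N-InvC, an invertase, overlapped between the genotypes.

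**Figure D2:**
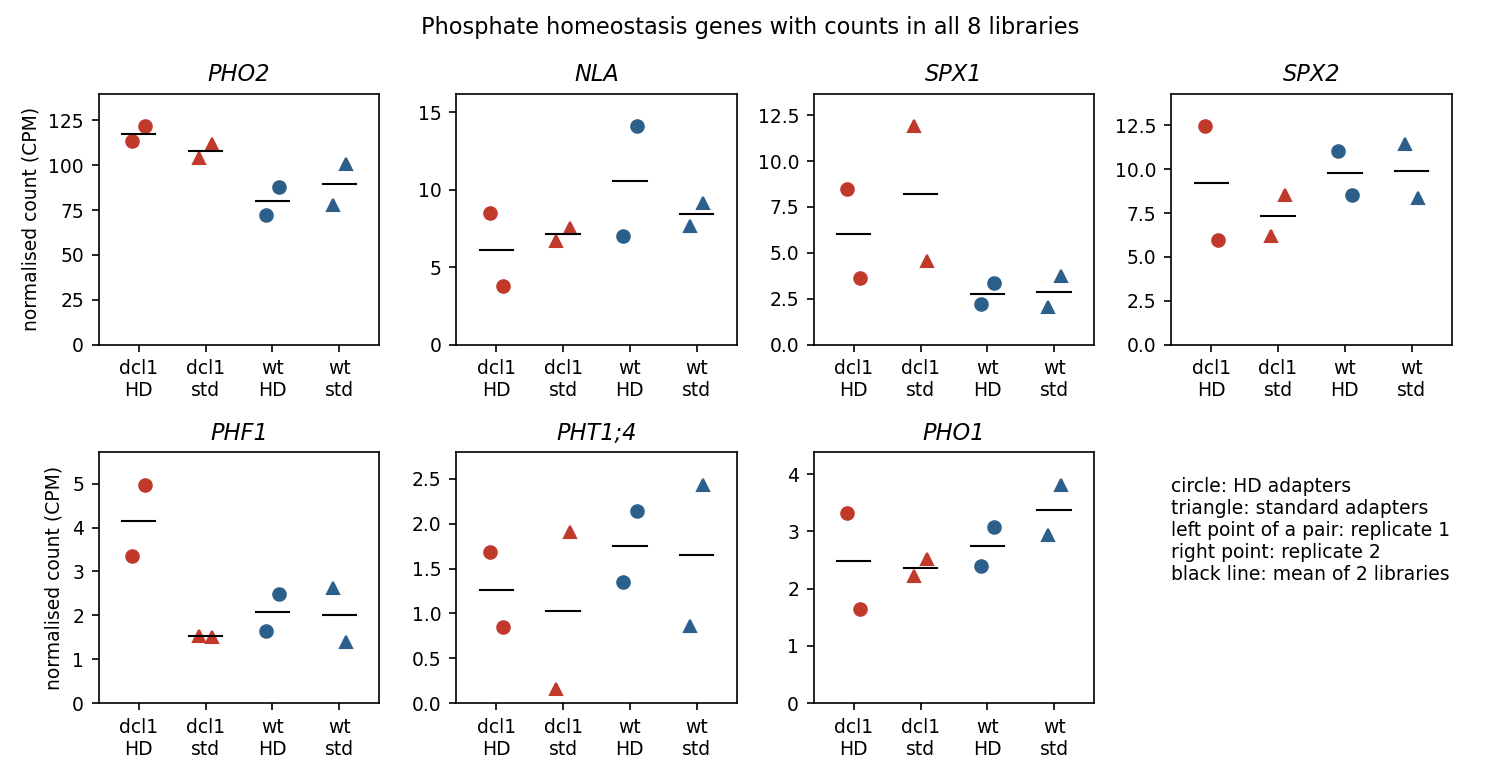
Normalised counts (CPM, y axis, each panel with its own scale from 0) of the 7 tested phosphate genes in every library, by genotype and adapter (x axis, std for standard); points are libraries and black lines means of 2. PHO2 has all 4 dcl1 libraries above all 4 wt libraries, and SPX1 has dcl1 replicate 1 far above the rest with both adapters.

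SPX1 (AT5G20150, chr5:6802282-6803655, plus strand), a nuclear phosphate sensor whose own transcript rises in starved plants, had the largest log2 fold change of the 7 on the summed counts. It stood at 8.45 and 3.64 CPM in dcl1 with HD adapters, against 2.20 and 3.37 CPM in wt. With standard adapters it stood at 11.9 and 4.54 CPM in dcl1, against 2.03 and 3.74 CPM in wt. The genotypes did not overlap within either adapter, but dcl1 replicate 2 was close to the higher wt libraries.

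SPX1 was 2.22-fold higher in dcl1 replicate 1 than in dcl1 replicate 2 on the summed counts. The summed values averaged 6.88 ± 3.69 CPM in dcl1 and 2.84 ± 1.04 CPM in wt (SD, n = 2 each), and the log2 fold change was 1.27 (SE 0.40, edgeR adjusted p = 0.0604). Without dcl1 replicate 1 the log2 fold change was 0.58 (edgeR adjusted p = 0.551), and without dcl1 replicate 2 it was 1.73 (edgeR adjusted p = 0.000447). Without wt replicate 2 it was 1.70 (edgeR adjusted p = 0.00492). Each of these 3 fits has 1 sample in an arm and takes the spread from the other genotype alone. The share of counts on ribosomal RNA loci was also higher in dcl1 replicate 1, at 27.3% and 28.7%, than in dcl1 replicate 2, at 20.5% and 20.9%, and its part in the SPX1 difference was not tested.

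SPX2 (AT2G26660, chr2:11338752-11340950, plus strand), which acts alongside SPX1, showed no such ordering. It stood at 12.4 and 5.95 CPM in dcl1 with HD adapters, against 11 and 8.51 CPM in wt, and at 6.19 and 8.50 CPM in dcl1 with standard adapters, against 11.4 and 8.35 CPM in wt. The genotypes overlapped with both adapters, and the summed log2 fold change was -0.09 (SE 0.26, edgeR adjusted p = 0.892). SPX3 (AT2G45130, chr2:18606410-18607853, plus strand), a related sensor that is strongly induced by starvation, had 0 counts in the 4 dcl1 libraries and 5 counts in 1 wt library, so it was not tested.

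PHF1 (AT3G52190, chr3:19353867-19357261, minus strand), which helps PHT1 transporters leave the endoplasmic reticulum, was the gene whose genotype difference changed sign with the adapter. It stood at 3.34 and 4.98 CPM in dcl1 with HD adapters, against 1.65 and 2.50 CPM in wt. With standard adapters it stood at 1.53 and 1.5 CPM in dcl1, against 2.62 and 1.40 CPM in wt. Both dcl1 libraries lay above both wt libraries with HD adapters and between them with standard adapters. The log2 fold changes were 0.99 (SE 0.76) with HD adapters and -0.40 (SE 0.77) with standard adapters, and their difference of 1.39 (SE 1.08) had an edgeR adjusted p of 0.9999. These values rest on 29 to 155 counts a library.

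PHT1;4 (AT2G38940, chr2:16257157-16260253, plus strand), a high-affinity phosphate importer, was near the lower limit of measurement. It had 78, 14, 3 and 62 counts in the dcl1 libraries and 27, 86, 19 and 104 counts in the wt libraries, HD libraries first. Its summed values were 1.25 and 1.56 CPM in dcl1 and 1.09 and 2.30 CPM in wt, which overlapped, with a log2 fold change of -0.28 (SE 0.64, edgeR adjusted p = 0.862). PHO1 (AT3G23430, chr3:8387398-8393467, minus strand), which loads phosphate into the xylem, had summed values of 3.02 and 2.24 CPM in dcl1 and 2.67 and 3.46 CPM in wt. These overlapped as well, and the log2 fold change was -0.22 (SE 0.43, edgeR adjusted p = 0.831).

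PHT1;1 (AT5G43350, chr5:17399769-17402158, minus strand), a main root importer, and IPS1 (AT3G09922, chr3:3050989-3051530, plus strand) were listed in none of the 8 files. A count of 3 would have been 0.0647 to 0.182 CPM, depending on the library, and this covers counting error only. Of the 50-base stretches of PHT1;1, 40.4% also occur in its neighbours PHT1;2 and PHT1;3, which were at 0 too, so reads with several matches may have been left out there. For IPS1 and the other 8 genes, no such stretch of the transcript occurred elsewhere in the genome. The files list only loci with counts, so a locus that was never counted would look the same as one at 0. Whether IPS1 was counted cannot be told from these files.

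**Figure D3:**
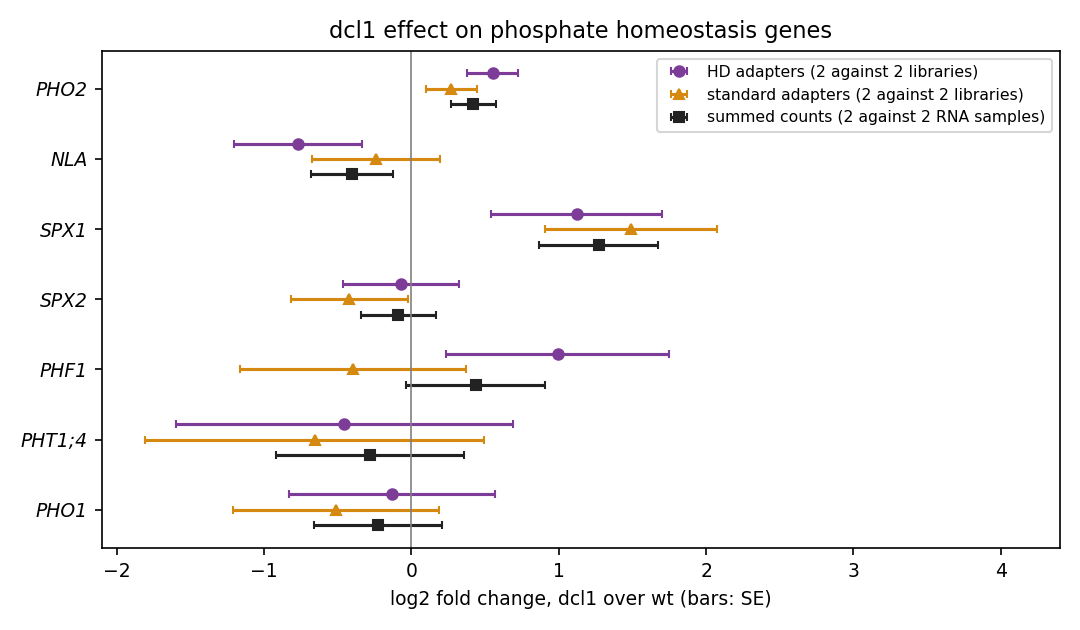
Log2 fold change, dcl1 over wt (x axis), of the 7 tested phosphate genes with HD adapters, with standard adapters and on summed counts; bars are standard errors. PHO2 and SPX1 are on the positive side in all 3. NLA, SPX2, PHT1;4 and PHO1 are on the negative side in all 3, and PHF1 changes sign with the adapter.

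Counting genotypes without overlap, 3 of the 7 lay higher in dcl1 on the summed counts (PHO2, SPX1 and PHF1), against 26.3% of all loci, and 0 lay lower, against 25.6%. With HD adapters the same 3 lay higher, against 22.5% of all loci. With standard adapters 2 lay higher (PHO2 and SPX1), against 22.9%, and 2 lay lower (NLA and PHO1), against 24.5%. The summed position of PHF1 rests mostly on HD libraries. In dcl1 these gave 155 and 82 of its counts, and the standard libraries 29 and 49. The median log2 fold change of the 7 was -0.09 on the summed counts, beside 0.01 over all loci tested.

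HD and standard adapters were also compared directly, with genotype in the model but without pairing the HD and standard libraries of each RNA. By edgeR, 0 of the 7 phosphate genes differed between adapters, where 0.492% of all loci did, and 0 of the 7 were at an unadjusted p under 0.05, against 8.06%. DESeq2 also called 0. With the RNA sample as a block in edgeR, which makes that pairing, 232 of 19521 loci were called, and 0 of the 7. The log2 difference, HD over standard, was 0.75 for PHF1 (SE 0.55, edgeR adjusted p = 0.789) and between -0.24 and 0.18 for the other 6. PHO2 was at -0.02 (SE 0.12, edgeR adjusted p = 0.988). For 0 of the 7 was the genotype effect called different between adapters by edgeR, where 0.0256% of all loci were, and 0 of the 7 were at an unadjusted p under 0.05, against 3.17%, with 0 called by DESeq2. That comparison of genotype effects was not paired by RNA sample either.

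Ordered by CPM per kilobase of exon over the 8 libraries, PHO2 was highest at 23.6 (17.3 to 29.1), followed by SPX2 at 7.01 (4.61 to 9.64), NLA at 5.21 (2.43 to 9.11) and SPX1 at 4.13 (1.69 to 9.87). PHF1 at 1.36 (0.781 to 2.77), PHO1 at 0.915 (0.547 to 1.27) and PHT1;4 at 0.712 (0.0794 to 1.22) came below them. PHO2 did not overlap any of the others in any library. The order differed between the genotypes: NLA and SPX1 averaged 4.29 and 5.92 in dcl1, against 6.13 and 2.35 in wt (4 libraries each). Below PHO2, every pair of neighbours in this order overlapped over the 8 libraries. The summed values of SPX1, at 1.75 to 7.87, and PHF1, at 1.08 to 1.57, did not overlap.

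The loci most like PHO2 across the 8 libraries were ARC6, AT3G19850 and HCF243, at a root mean square difference of 0.0848, 0.0878 and 0.0944 in centred log2(CPM + 1), among 12194 loci averaging at least 5 CPM. For NLA they were AT4G17420, AT4G01593 and AT4G01595, at 0.114, 0.140 and 0.150. These are descriptions over 8 libraries of 4 RNA samples.

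Beyond the 10, 86 other loci of the phosphate pathway were read from lists of transporters, regulators, phosphatases, lipid enzymes, and miRNA precursors with the decoy AT4. Of these, 57 could be tested on the summed counts, and edgeR called 3 higher and 1 lower, against 4.3% and 4.55% of all loci tested. With HD adapters it called 1 higher and 2 lower of 56, against 2.07% and 2.26% of all loci. With standard adapters it called 1 higher and 1 lower of 56, against 1.87% and 2.36%. These counts moved with single samples. On the summed counts 10 loci were called without wt replicate 1 (8 higher and 2 lower) and 2 without wt replicate 2 (1 higher and 1 lower), again with 1 wt sample in the fit. With 1 library left out, the HD count fell to 0 (without wt replicate 1) or to 1 (without any 1 of the other HD libraries). The standard count fell to 0 (without the standard library of dcl1 replicate 1) or to 1 (without the standard library of either replicate 2), and was 4 without the HD library of dcl1 replicate 2. The median log2 fold change of the 57 was 0.13, beside 0.01 over all loci.

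Among the 14 transporters tested on the summed counts, edgeR and DESeq2 both called PHT4;4 and PHO1;H1 higher in dcl1 and 0 lower, with a median log2 fold change of 0.28. Over all loci tested, edgeR called 4.3% higher and 4.55% lower. PHO1;H1, the closest relative of PHO1 in root-to-shoot phosphate transport, stood at 6.99, 5.46, 6.19 and 6.45 CPM in the dcl1 libraries and 2.75, 1.32, 2.71 and 1.99 CPM in the wt libraries, HD libraries first. All 4 dcl1 libraries were above all 4 wt libraries, as was true of 7.64% of all loci tested. The summed log2 fold change was 1.57 (SE 0.37, edgeR adjusted p = 0.0117). With wt replicate 2 left out it was 1.24 (edgeR adjusted p = 0.0552).

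PHT4;4, a chloroplast envelope transporter reported to carry ascorbate, stood at 49.0 and 43.7 CPM in the summed dcl1 samples and 29.6 and 23.0 CPM in the summed wt samples. Its log2 fold change was 0.82 (SE 0.17, edgeR adjusted p = 0.00459), and with HD adapters it was 0.81 (SE 0.22, edgeR adjusted p = 0.0350). Over the alternatives tried, the summed log2 fold change ran between 0.63 and 1.02. The HD call was lost without dcl1 replicate 1 (edgeR adjusted p = 0.200) or either wt replicate (edgeR adjusted p = 0.0587 and 0.192).

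Of 19 regulators tested on the summed counts, edgeR called 1 higher in dcl1 and 0 lower, against 4.3% and 4.55% of all loci. At an unadjusted p under 0.05 there were 2 of the 19, against 21.7%. DESeq2 called 1 higher and 1 lower, and the one lower was ALIX, a trafficking protein, at -0.47 (DESeq2 adjusted p = 0.0442, edgeR adjusted p = 0.0725). HHO2, a repressor of the GARP family that ties nitrate to phosphate responses, stood at 32.1 and 32.6 CPM in the summed dcl1 samples and 22.3 and 17.6 CPM in the summed wt samples, with a log2 fold change of 0.70 (SE 0.17, edgeR adjusted p = 0.0157). Without wt replicate 2 it was 0.53 (edgeR adjusted p = 0.130). PHR1 stood at a log2 fold change of 0.03 (SE 0.17, edgeR adjusted p = 0.956).

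Of 11 phosphatases and related enzymes tested on the summed counts, edgeR called 0 higher and 1 lower, against 4.3% and 4.55% of all loci. At an unadjusted p under 0.05 there were 4 of the 11, against 21.7%. DESeq2 also called 0 higher and 1 lower. PAP1, a purple acid phosphatase, stood at 8.26, 7.52, 6.40 and 7.21 CPM in the dcl1 libraries and 27.6, 16.0, 21.9 and 15 CPM in the wt libraries, HD libraries first. The summed log2 fold change was -1.40 (SE 0.23, edgeR adjusted p = 0.000946), with -1.46 from HD adapters and -1.43 from standard adapters. The HD call was lost without dcl1 replicate 2 (-1.39, edgeR adjusted p = 0.0680) or wt replicate 1 (-1.0, 0.224). The standard call was lost without dcl1 replicate 1 (-1.35, 0.0680) or wt replicate 1 (-1.14, 0.138). PAP17, a phosphatase widely used as a starvation marker, was at 1.20 (SE 0.40, edgeR adjusted p = 0.0722). RNS1, a ribonuclease also induced by starvation, lay the other way, with 6, 0, 19 and 0 counts in the dcl1 libraries and 29, 118, 28 and 141 counts in the wt libraries. Its fitted log2 fold change of -3.48 (SE 1.07, edgeR adjusted p = 0.0516) rests on few dcl1 counts, and DESeq2 called it lower with HD adapters (adjusted p = 0.0246). PAP17, RNS1, ALIX above and AT4 below were picked after their values were seen.

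Of 12 lipid enzymes tested, edgeR called 0 on the summed counts, against 8.85% of all loci. DESeq2 called 1, SQD1, which was higher in dcl1 (log2 fold change 0.52, DESeq2 adjusted p = 0.0444). SQD1 was named after its values were seen. At an unadjusted p under 0.05 there were 5 of the 12, against 21.7%. With HD adapters PLDP1, a phospholipase D named after its values were seen because it was the only call by edgeR, was lower in dcl1 (log2 fold change -0.91, SE 0.26, edgeR adjusted p = 0.0448). The HD call was lost without any 1 of the 4 HD libraries, with log2 fold changes of -1.0 to -0.79 and adjusted p of 0.0898 to 0.243. With standard adapters PLDP1 was at -0.18 (SE 0.25, edgeR adjusted p = 0.832). The precursors MIR399A to MIR399F and MIR827 were at 0 in all 8 libraries. Only 1 of 326 annotated miRNA loci was listed in any file, so these tables do not bear on precursor levels.

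AT4, the decoy related to IPS1, was the only locus of its list with enough counts. It had 69, 40, 55 and 10 counts in the dcl1 libraries and 9, 20, 0 and 13 counts in the wt libraries, HD libraries first. As CPM this was 1.49, 2.43, 2.91 and 0.307 in dcl1 and 0.451, 0.499, 0 and 0.304 in wt. The lowest dcl1 library fell among the wt libraries. On the summed counts AT4 stood at 1.91 and 1.03 CPM in dcl1 and 0.213 and 0.399 CPM in wt. The log2 fold change was 2.23 on these few counts (edgeR adjusted p = 0.163).

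**Figure D4:**
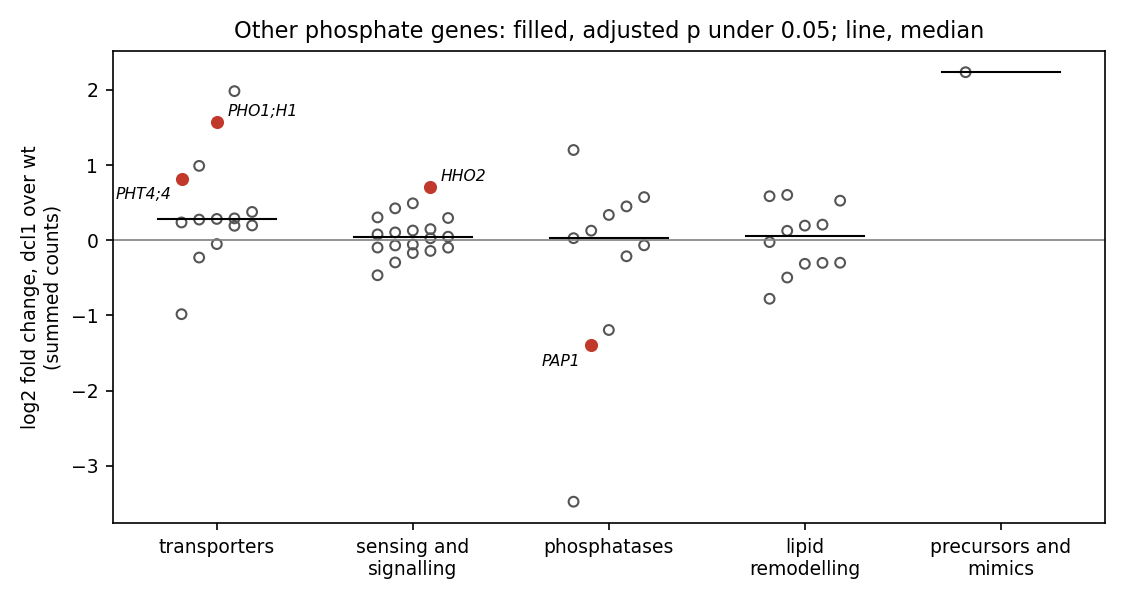
Log2 fold change, dcl1 over wt, on summed counts (y axis) for 57 further phosphate loci, by list (x axis); filled points passed an adjusted p under 0.05 and horizontal lines are medians. PHT4;4, PHO1;H1 and HHO2 are the filled points above 0 and PAP1 the one below.

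The element GNATATNC, the PHR1 binding site known as P1BS, was searched in 300 bases around each gene start, 250 before and 50 after, and it reads alike on both strands. It was present in 6.25% of 27444 promoters of protein-coding genes and in 3 of the 10 phosphate genes, SPX1, SPX3 and PHT1;4. In the 1000 bases before the start it was present in 20.3% of promoters and in 6 of the 10, with 2 copies each in SPX3, PHT1;1 and IPS1. Among the lists, 7 of the 8 precursor and decoy loci, 12 of 19 phosphatases and 7 of 14 lipid enzymes held it in the 300 bases, beside 3 of 23 transporters and 3 of 22 regulators. In the 1000 bases before the start the counts were 8 of 8, 13 of 19 and 7 of 14, beside 10 of 23 and 8 of 22. Of the loci called on the summed counts, PAP1 held it in both windows, HHO2 in the 1000 bases only, and PHT4;4 and PHO1;H1 in neither. A match is a description of the sequence only.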

How the data were processed

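Leaf mRNA was sequenced from dcl1 and wt plants in 8 libraries, 2 for each genotype and adapter. Each deposited file gives whole-number read counts for named loci, without a header, and the genome build is TAIR10, per the submitters' processing notes. Not given in the sources used here are the aligner, the counter, its strand setting and what it did with reads that match several places. The counts ran from 1 up, and a locus absent from a file was taken as 0. Of 22546 loci listed, 22444 matched the RefSeq TAIR10.1 annotation, and all stayed in the fits.

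Counts were tested with edgeR 4.0.16 in R 4.3.3 (quasi-likelihood F test, TMM, filterByExpr, Benjamini-Hochberg over all loci tested, call at an adjusted p under 0.05). HD and standard contrasts came from 1 fit of the 4 groups over 8 libraries. That fit, by edgeR or DESeq2, took the libraries as independent, so its spread counts each of the 4 RNA samples more than once. The difference between the adapters in the dcl1 effect came from the same fit and was not paired by RNA sample. For summed counts, the HD and standard libraries of the same genotype and replicate number were added, giving 4 RNA samples. The common biological coefficient of variation was 38.2% in the first fit and 27.2% in the second. Where leaving out a sample left 1 in a group, the spread came from the other groups, and the lone sample was assumed to vary like them. Libraries of a group were no duplicates: their counts differed at 26.6 to 50.5 times the chi-square expected from sampling. Coordinates are those of TAIR10.1, the RefSeq release of the same build. The procedure was also run on simulated data, in which the HD and standard library of an RNA sample shared all spread beyond counting error. In the real data such libraries deviated together only in part, so the simulation does not check the pairing.

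Same-numbered HD and standard libraries deviated together at loci averaging 100 CPM or more (correlation 0.393 in dcl1 and 0.692 in wt, 964 loci) and barely over all loci (0.00492 and 0.0820). The series text states that the RNA was shared, and the numbers were taken to mark it. The members and lists were chosen with earlier results of these data known. The genes named by rule were the 10 members, up to 3 called loci with the smallest p from each list, and the 3 loci nearest to PHO2 and to NLA. Named outside that rule were PHR1, and PHT5;1, LINC1, RH39 and A/N-InvC, which hold a miRNA site. ALIX, PAP17, RNS1, SQD1, PLDP1 and AT4 were also outside it. Alternatives tried were RLE scaling, DESeq2 1.42.0, other filters, leaving out rRNA loci or each replicate, the replicate number as a block, each adapter alone, both adapters as separate libraries, and thinning. For the comparison of adapters the block was the RNA sample instead.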

Additional observations from a re-analysis of the deposited data

How the results depend on the processing

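With 0 of the 7 phosphate genes called in the dcl1 comparisons by edgeR, the calls gained under an alternative were PHO2 and SPX1 only. With HD adapters 1 gene (PHO2) passed under DESeq2, without a count filter and with the replicate block. On summed counts 1 gene (SPX1) passed without a filter and with the replicate block, 2 (PHO2 and SPX1) when the 8 libraries were fitted with genotype and adapter as terms, which counts each of the 4 RNA samples more than once, and 0 to 2 when a replicate was left out. With standard adapters and in both adapter comparisons no alternative called any of the 7. Over all loci, HD calls numbered 846, against 1332 without a filter and 461 (without dcl1 HD replicate 2) to 1089 with a library left out. Standard-adapter calls numbered 826, against 418 (without wt replicate 2) to 996 with a library left out, and 465 without dcl1 replicate 1. Loci whose genotype effect differed between adapters numbered 5, against 3 with RLE scaling, with a filter of 1 CPM in 2 libraries or without rRNA loci, 16 without a filter, and 3 to 13 with a library left out. Adapter calls numbered 96, against 186 with DESeq2, 190 without a filter, 34 within dcl1 and 49 within wt. They numbered 232 with the RNA sample as the block, which pairs the HD and standard libraries of each RNA. In the other comparisons the block was the replicate number. Across dcl1 and wt the numbers are only shared labels (correlation of deviations 0.00934 on summed counts, with 2 pairs). No other call of the 7 moved with a block. Called loci of the phosphate lists on summed counts numbered 4, against 10 with the block, 11 without a filter, 7 in the 8-library fit and 2 to 10 with a sample left out. The HD number was 3, against 5 with DESeq2 or without a filter, and the standard number 2, against 4 without a filter. The cause of these changes was not tested. Fits on sums with a sample left out have 1 sample in an arm and take the spread from the other. PHT1;4 and AT4 rest on few counts, and their replicates differ: in dcl1 with standard adapters PHT1;4 had 3 and 62 counts and AT4 55 and 10. Log2 fold changes of PHT1;4 on summed counts ran from -0.71 to 0.35 over the alternatives.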
